A study of Homo sapiens with 6 samples.

Results

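The genes described here are 39 protein-coding genes of mitotic entry, the spindle checkpoint, chromosome segregation and cytokinesis, taken by symbol from a list that leaves out the kinesin motors. The list was chosen with earlier results of these data known. All 39 were rows of the count table, which holds 54261 gene symbols, 25004 of them without a read in any library. The cells were PC9/GR, labelled as lung cancer cells; PC9 is an established human lung adenocarcinoma line, and the labels do not spell out GR. One group of 3 libraries came from cells given a control small interfering RNA (si-NC, genotype label Control) and the other group of 3 from cells given a small interfering RNA against the long noncoding RNA MYLK-AS1 (si-MYLK-AS1). Every library is from the same line, and no source used here states the dose, the time after transfection or the sequence of the interfering RNA. The repeats of a group are numbered, but nothing says that they were separate cultures, so p-values measure the spread between these libraries, which may be technical.

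Mitosis starts when CDK1 bound to A-type and B-type cyclins is freed of its inhibitory phosphates, with the Aurora and Polo kinases acting beside it. The spindle checkpoint then holds the anaphase-promoting complex (APC/C) in check until every kinetochore is attached, after which CDC20 turns it on, securin and cyclin B are destroyed, and the cell divides at the midzone. Many of the genes for these steps are transcribed together late in the cycle through the MuvB complex with B-MYB and FOXM1, which is recruited to the CHR promoter element, and through NF-Y, which binds CCAAT boxes. The same CHR element serves the DREAM complex, which represses these genes in resting cells.

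MYLK-AS1, the targeted transcript, had 20, 16 and 19 reads in control libraries 1 to 3 and 0, 5 and 4 reads in knockdown libraries 1 to 3. The groups did not overlap, and the fitted log2 fold change was -2.43 ± 0.60 (SE; n = 3 per group; edgeR adjusted p = 0.00326, exact two-sided permutation p = 0.1, the smallest that 3 against 3 allows). The 0 in knockdown 1 allows up to 3 reads, or 0.274 CPM, the read count scaled to library size. Library totals ran from 7551303 reads in knockdown 3 to 11055408 in knockdown 1. Of 11 epithelial and lung adenocarcinoma markers fixed for a check of the label, SFTPB had no reads and NKX2-1 and SFTPC were too low to test. EPCAM was also low, with 15, 16 and 14 reads in control and 7, 5 and 4 reads in knockdown libraries (edgeR adjusted p = 0.0199). NAPSA stood at 1.49 ± 0.207 and 1.51 ± 0.671 CPM. The sum of the list, carried by keratins, was 11854 to 13877 CPM in control and 7627 to 8230 CPM in knockdown libraries. Markers of other cell types were low or lacked their defining genes: 7 fibroblast markers summed to 40.7 to 53.1 CPM in control and 42.9 to 54.7 CPM in knockdown libraries with COL1A2 at 0 reads, and 5 endothelial markers to at most 1.00 and 0.839 CPM with CLDN5 at 0. The 6 leukocyte markers summed to 201 to 282 CPM and 281 to 323 CPM, nearly all CD68 and CD14, with PTPRC and CD3E at 0 reads in every library. Within the fibroblast list, LUM rose from 0.482 ± 0.233 to 3.45 ± 1.5 CPM (log2 fold change 2.75 ± 0.46, edgeR adjusted p = 0.000128), and PDGFRB, too low to test, had 1, 2 and 0 reads in control and 11, 7 and 12 reads in knockdown libraries. The better expressed COL1A1 (0.13 ± 0.14, edgeR adjusted p = 0.493) and THY1 (-0.38 ± 0.16, edgeR adjusted p = 0.0627) gave no call. Of 8 tested epithelial markers 5 fell, while KRT19 rose (0.37 ± 0.10, edgeR adjusted p = 0.00816). The lower keratin-led epithelial sum, LUM and PDGFRB moved with the knockdown, and their part in the results below was not tested.

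Because these genes moved together, the promoters of 10 of them are shown first. Each line gives the 110 bases before a RefSeq start of transcription, 5′ to 3′ in the direction of the gene, from the RefSeq promoter table (GRCh38.p14). For CCNB1, HMMR and PRC1, among others, the gene begins farther upstream in the GENCODE annotation, so positions hold for the RefSeq start only. Capitals mark TTTGAA, the CHR element, and CCAAT, the NF-Y box, on either strand, so that TTCAAA and ATTGG are the reverse-strand forms. They were chosen after the matches were seen, to cover all roles but transcription and to show promoters with both elements, with 1 of them and with several copies.
CCNB2, chr15:59105036-59105145, plus strand: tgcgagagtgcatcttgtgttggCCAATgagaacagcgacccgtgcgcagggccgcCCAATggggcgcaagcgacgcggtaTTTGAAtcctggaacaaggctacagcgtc
PLK1, chr16:23678779-23678888, plus strand: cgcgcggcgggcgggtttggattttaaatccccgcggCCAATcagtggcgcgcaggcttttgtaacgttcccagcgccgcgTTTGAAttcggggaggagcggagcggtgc
PRC1, chr15:90994536-90994645, minus strand: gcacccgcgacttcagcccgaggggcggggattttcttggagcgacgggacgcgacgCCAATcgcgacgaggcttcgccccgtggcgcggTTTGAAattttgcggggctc
MKI67, chr10:128126424-128126533, minus strand: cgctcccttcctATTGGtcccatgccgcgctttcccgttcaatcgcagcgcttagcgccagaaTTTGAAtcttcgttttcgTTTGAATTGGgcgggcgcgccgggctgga
HMMR, chr5:163460522-163460631, plus strand: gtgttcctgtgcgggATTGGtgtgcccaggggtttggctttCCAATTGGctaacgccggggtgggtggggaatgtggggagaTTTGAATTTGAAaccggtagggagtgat
CDC20, chr1:43358871-43358980, plus strand: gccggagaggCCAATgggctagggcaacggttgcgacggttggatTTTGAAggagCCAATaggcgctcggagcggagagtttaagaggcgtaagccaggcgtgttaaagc
CENPA, chr2:26785946-26786055, plus strand: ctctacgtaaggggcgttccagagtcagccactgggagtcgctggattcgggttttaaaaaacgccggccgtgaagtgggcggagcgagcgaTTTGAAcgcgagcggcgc
BUB1B, chr15:40160959-40161068, plus strand: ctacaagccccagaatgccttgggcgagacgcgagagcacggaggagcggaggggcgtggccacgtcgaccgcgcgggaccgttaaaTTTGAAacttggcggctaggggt
CCNB1, chr5:69167040-69167149, plus strand: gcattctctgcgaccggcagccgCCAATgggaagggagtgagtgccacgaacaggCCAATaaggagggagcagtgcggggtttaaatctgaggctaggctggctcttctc
PSRC1, chr1:109283146-109283255, minus strand: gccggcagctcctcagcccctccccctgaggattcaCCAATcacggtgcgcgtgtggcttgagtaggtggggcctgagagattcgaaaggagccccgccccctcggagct

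CCNB2, PLK1 and PRC1 show the same order of elements, with a CCAAT box at -54, -73 and -53 and a single TTTGAA at -29, -29 and -20, counting the first base of the match from the start site. HMMR carries abutting TTTGAA matches at -28 and -22 and a pair of CCAAT matches that share bases, one on each strand. In MKI67 the TTTGAA at -29 shares its last base with a reverse-strand CCAAT match at -24. CDC20 has its TTTGAA at -65, before and not after a CCAAT box at -55. BUB1B and CENPA have TTTGAA at -23 and -18 and no CCAAT in the bases shown, whereas CCNB1 and PSRC1 have CCAAT boxes and no exact TTTGAA. CHR variants of other letters were not searched, and the lack of a match says only that those letters are not in the window.

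Of the 39 genes, 32 had an entry in the promoter table, with 42 windows of 250 bases before to 50 after a start site; FOXM1, AURKA, BUB3, TTK, UBE2C, TPX2 and BIRC5 had none. TTTGAA was found on either strand in at least 1 window of 24 of the 32 genes (75%), against 18.2% of the 27305 genes in the table and 13.3% of the 9705 tested genes that matched it. Counted by window, so that genes with several starts weigh no more per window, the shares were 64.3% of 42 and 15.2% of 35116. CCAAT was in 26 of 32 (81.3%) against 39.7% of all genes in the table, and both elements were in 18 of 32 (56.3%) against 7.26%. The E2F-like words searched were TTCCCGC with its relative TTCGCGC, and TTGCCGC with its relative TTGGCGC. At least 1 of them was in 12 of 32 (37.5%), against 15.3% of all genes and 24.8% of tested genes. Part of the matches lay close to the start site. Within the last 60 bases before it, a distance chosen after seeing the positions, TTTGAA was in 12 of 32 genes (37.5%) against 3.42% of all genes. CCAAT was there in 18 of 32 (56.3%) against 11.6%. Other TTTGAA matches lay farther out, as at -194 and -151 in TOP2A, or after the start, as at 17 in NUF2. These are letter matches, not measured binding. The median log2 fold change was -1.21 for 23 tested genes with TTTGAA and -1.26 for 7 without, and -1.25 for 24 with CCAAT and -0.90 for 6 without, a description over few genes.

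**Figure D1:**
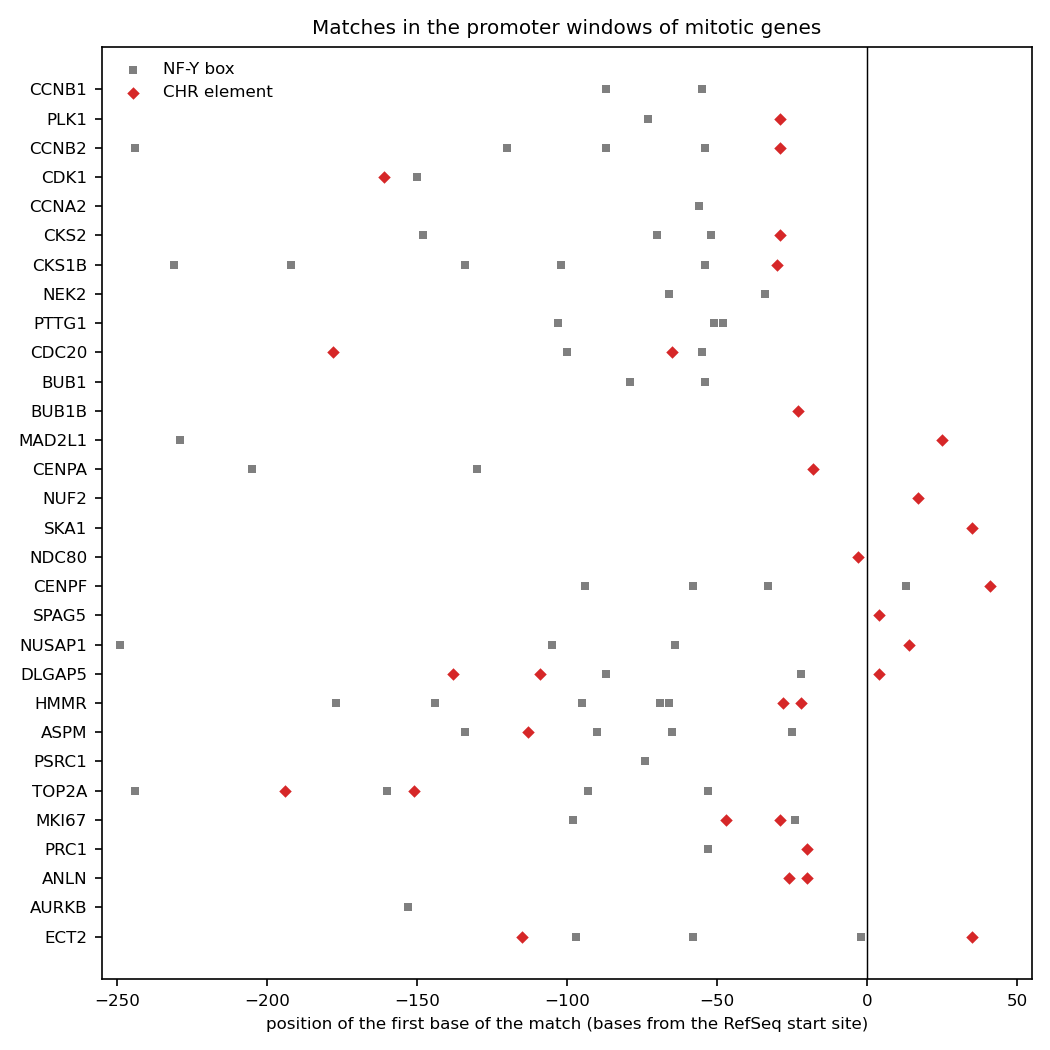
Position of the first base of each CHR element (TTTGAA, red diamonds) and NF-Y box (CCAAT, grey squares) on either strand, in bases from the RefSeq start site at 0, in the first listed window of each gene with a match. For PLK1, CCNB2, CKS2 and CKS1B the CHR match starts 29 or 30 bases before the start site with NF-Y boxes farther out. CCNA2, CCNB1, NEK2, BUB1, PTTG1, PSRC1 and AURKB show NF-Y boxes alone.

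In the knockdown libraries mRNA of nearly the whole mitotic gene set was lower. Of the 37 genes that passed the filter on low counts, 34 fell and 0 rose at an adjusted p under 0.05 (edgeR quasi-likelihood test, Benjamini-Hochberg over 15391 tested genes), and 3, CDK1, MAD2L1 and NDC80, gave no call. Over all tested genes 20.7% fell and 21.3% rose, so that the fall of 91.9% of the tested mitotic genes stood far above the background. Because the list was chosen with earlier results of these data known, this contrast is a description and not a test. At least 2-fold lower were 25 of the 37, against 7.35% of all tested genes, and in 35 every knockdown value was under every control value, against 26.1%. The median log2 fold change of the 37 was -1.25 (quartiles -1.46 and -0.93), beside -0.00 (quartiles -0.40 and 0.36) over all tested genes. NEK2 and CENPF, with 27 and 35 reads over all 6 libraries, did not pass the filter; among the genes that did, the lowest value in any library was 3.46 CPM, so none passed through its control values alone.

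Summed over the 39 genes, expression was 5730, 5719 and 5465 CPM in control libraries 1 to 3 and 2423, 2481 and 2548 CPM in knockdown libraries 1 to 3. That is 5638 ± 150 against 2484 ± 62.7 CPM (SD, n = 3), with no overlap. TOP2A, CDC25B and MKI67 made up 36.1% of the control and 37.7% of the knockdown sum, and without them the sums were 3600 ± 29 and 1547 ± 66.5 CPM. In bulk RNA, fewer cells in G2 and mitosis and less RNA of these genes per cell cannot be told apart.

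**Figure D2:**
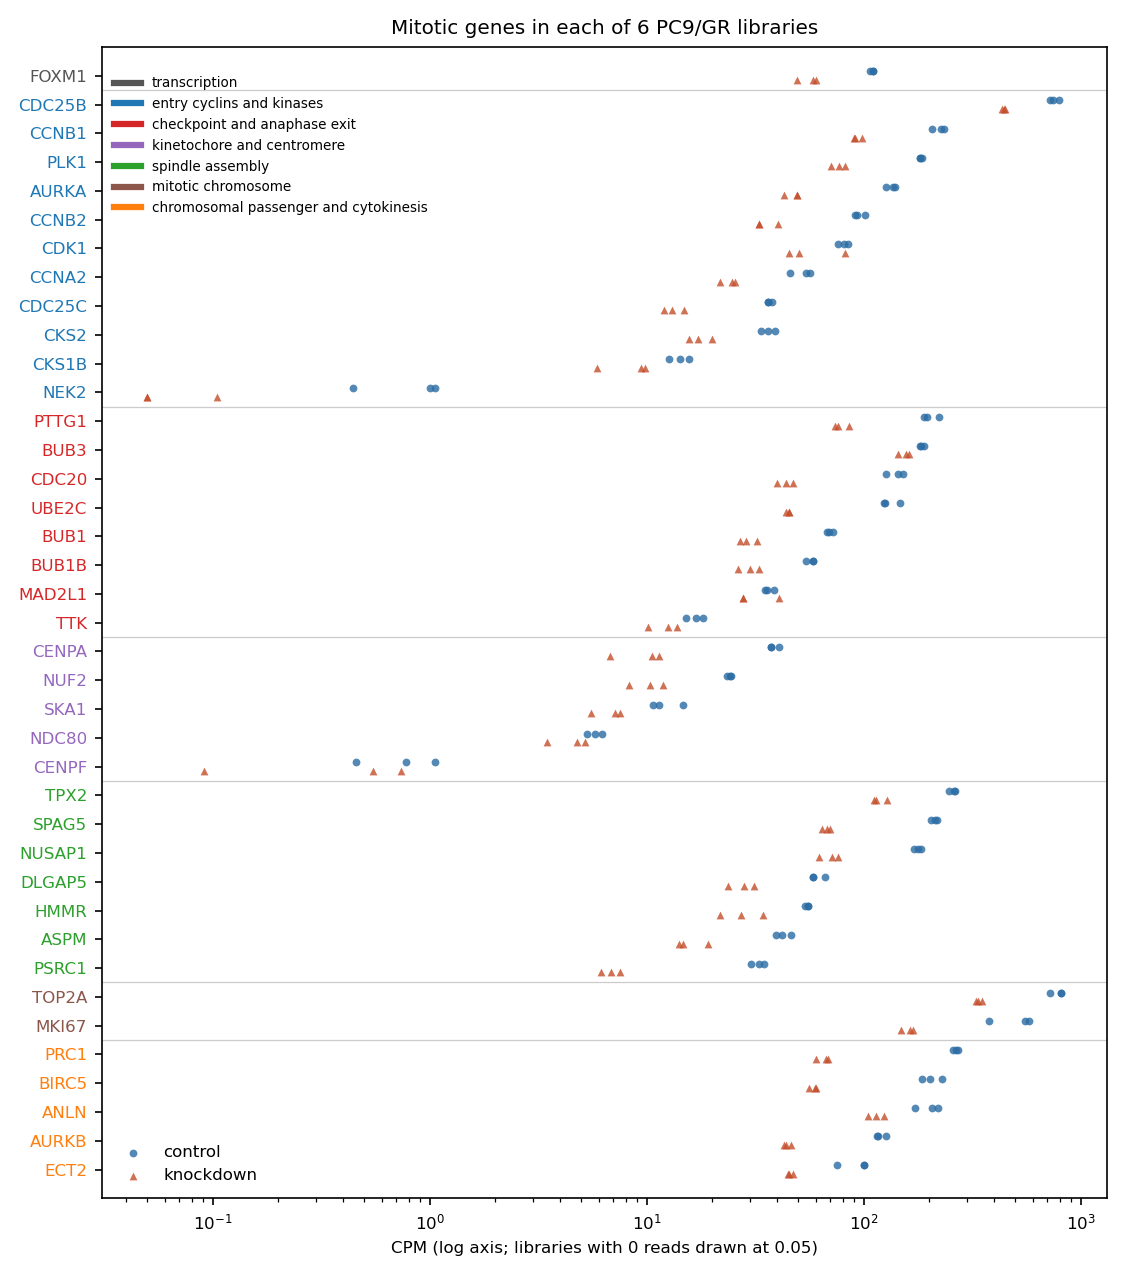
CPM of each of the 39 genes in every library on a log axis, ordered by role (label colour) and control level; circles are the 3 control and triangles the 3 knockdown libraries, with values of 0 drawn at 0.05. The groups are apart for most genes, and the 82.3 and 40.8 CPM of knockdown 3 for CDK1 and MAD2L1 lie among the control values.

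FOXM1, the forkhead factor that activates this set of genes, stood at 111, 109.8 and 107 CPM in the controls and 49.0, 60 and 58.3 CPM in the knockdown libraries. The knockdown mean was 51.0% of the control mean, and the groups did not overlap. The log2 fold change was -0.97 ± 0.10 (SE, n = 3; edgeR adjusted p = 1.15e-06).

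Of the 11 cyclins, CDK subunits, phosphatases and kinases of mitotic entry, 10 were tested and 9 fell, with a median log2 fold change of -1.19. AURKA, the kinase of spindle poles and centrosome maturation, changed the most and had the lowest p of this group, with 136, 139 and 126 CPM in control and 43.1, 49.5 and 49.1 CPM in knockdown libraries. Its knockdown values were about alike and well under every control (log2 fold change -1.50 ± 0.10, edgeR adjusted p = 6.16e-09). PLK1, the Polo kinase that drives entry and centrosome separation, read 182, 181 and 185 CPM against 81.7, 76.9 and 70.8 CPM, and its log2 fold change was -1.25 ± 0.09 (edgeR adjusted p = 1.79e-08). Both B-type cyclins, the activating partners of CDK1, fell. CCNB1 read 206, 233 and 227 CPM in control and 90.6, 90.9 and 98.4 CPM in knockdown libraries, a log2 fold change of -1.25 ± 0.09 (edgeR adjusted p = 1.75e-08). CCNB2 read 93.3, 101 and 91.5 CPM against 32.8, 32.8 and 40.3 CPM, a log2 fold change of -1.44 ± 0.11 (edgeR adjusted p = 3.38e-08). CCNA2, the cyclin of S phase and G2, fell by 1.12 on the log2 scale, from a mean of 52.1 ± 5.79 to 24.0 ± 1.98 CPM.

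CDK1 itself, the kinase these cyclins activate, was the exception of the group. It read 84.5, 76.4 and 80.7 CPM in control and 45.4, 50.1 and 82.3 CPM in knockdown libraries. Knockdown 1 and 2 lay under all controls, while knockdown 3 lay between the control values. The log2 fold change was -0.45 ± 0.19 with an edgeR adjusted p of 0.0771, and without knockdown 3 it was -0.75 with an adjusted p of 0.000149. The call also depended on the method, since CDK1 passed with DESeq2 (adjusted p = 0.0430) and with limma-voom (0.0176).

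Both phosphatases of the set that strip the inhibitory phosphates from CDK1 fell. CDC25B, the more abundant of the pair, read 747, 724 and 794 CPM in control and 442, 432 and 446 CPM in knockdown libraries, or 58.3% of the control mean (log2 fold change -0.78 ± 0.09, edgeR adjusted p = 1.6e-06). CDC25C read 37.9, 36.3 and 36.2 CPM against 14.9, 13.0 and 12.0 CPM, or 36.1% (log2 fold change -1.46 ± 0.14, edgeR adjusted p = 2.55e-07). Neither gene overlapped between groups. Their relative CDC25A, from the list of other entry regulators and named after its value was seen, went the other way. It rose from 7.63 ± 0.435 to 12.9 ± 1.16 CPM (log2 fold change 0.75 ± 0.18, edgeR adjusted p = 0.00245). The small CDK-binding subunits CKS1B and CKS2 fell by 0.74 and 1.05 on the log2 scale, from 14.2 ± 1.49 to 8.38 ± 2.18 CPM and from 36.3 ± 2.72 to 17.6 ± 2.26 CPM. NEK2, the kinase that parts the centrosomes, had 4, 11 and 11 reads in control and 0, 1 and 0 reads in knockdown libraries, too few for the test.

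Among the 8 genes of the spindle checkpoint and of anaphase onset, 7 fell and 1 gave no call, and the sizes spread widely, from -1.69 to -0.19 around a median of -1.09. The 3 genes that act with the APC/C were the lowest of them. CDC20, the APC/C activator that the checkpoint holds back, read 127, 144 and 151 CPM in control and 44.0, 39.6 and 47.1 CPM in knockdown libraries (log2 fold change -1.69 ± 0.11, edgeR adjusted p = 3.30e-09). UBE2C, the ubiquitin-conjugating enzyme of the APC/C, read 125, 123 and 146 CPM against 45.2, 45.1 and 43.8 CPM (log2 fold change -1.56 ± 0.10, edgeR adjusted p = 5.71e-09). PTTG1, the securin that keeps separase inactive, read 189, 195 and 222 CPM against 85.7, 73.4 and 76.2 CPM (log2 fold change -1.36 ± 0.10, edgeR adjusted p = 1.65e-08). All 3 were under 40% of the control mean in knockdown libraries, at 31.0%, 34% and 38.8%.

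The checkpoint components themselves differed in the size of the change, which was not tested between genes. The kinase BUB1 fell from 69.5 ± 2.28 to 29.2 ± 2.62 CPM and its relative BUB1B (BubR1), part of the inhibitor that binds CDC20, from 57.0 ± 2.56 to 29.7 ± 3.35 CPM, by 1.26 and 0.93 on the log2 scale. TTK (MPS1), the kinase that starts checkpoint signalling, read 18.2, 16.9 and 15.2 CPM in control and 10.1, 12.5 and 13.8 CPM in knockdown libraries (log2 fold change -0.47 ± 0.17, edgeR adjusted p = 0.0312). BUB3, the adaptor that brings BUB1 and BubR1 to kinetochores, read 189.6, 183 and 182 CPM against 143, 156 and 162 CPM (log2 fold change -0.27 ± 0.09, edgeR adjusted p = 0.0234). Both were lower without overlap, but neither call held when any of control 1, control 2, knockdown 1 or knockdown 2 was left out, with adjusted p from 0.0639 to 0.131, and the TTK call was also lost with DESeq2 (adjusted p = 0.0712). MAD2L1 (MAD2), which forms the inhibitor of CDC20, read 38.5, 35.8 and 34.9 CPM in control and 27.7, 27.8 and 40.8 CPM in knockdown libraries. As for CDK1, knockdown 3 was the library apart, here above all controls. The log2 fold change of MAD2L1 was -0.19 ± 0.15 (edgeR adjusted p = 0.322), and -0.38 (adjusted p = 0.0254) without knockdown 3.

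Of the 5 kinetochore and centromere genes, 4 were tested and 3 fell. CENPA, the histone H3 variant that marks the centromere, read 37.4, 37.4 and 40.8 CPM in control and 6.76, 11.4 and 10.5 CPM in knockdown libraries. That is 4.06-fold lower, the largest change of the group (log2 fold change -2.02 ± 0.17, edgeR adjusted p = 7.65e-08). NUF2, a subunit of the NDC80 complex that grips microtubules, read 24.1, 23.4 and 24.3 CPM against 8.31, 10.4 and 11.9 CPM (log2 fold change -1.25 ± 0.16, edgeR adjusted p = 9.84e-06). Its partner NDC80 was low, at 5.78, 5.30 and 6.22 CPM in control and 4.75, 3.46 and 5.19 CPM in knockdown libraries. The NDC80 values did not overlap, but the difference did not pass the test (log2 fold change -0.38 ± 0.24, edgeR adjusted p = 0.220). SKA1, part of the complex that couples kinetochores to shrinking microtubules, fell from 12.3 ± 2.18 to 6.71 ± 1.02 CPM, by 0.87 on the log2 scale (edgeR adjusted p = 0.00208). CENPF, a large outer kinetochore protein, had 7, 11 and 5 reads in control and 1, 7 and 4 reads in knockdown libraries. Those counts overlap and were too few to test.

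All 7 spindle assembly genes fell, with a median log2 fold change of -1.35. PSRC1, a microtubule-associated protein of the spindle, read 32.8, 30.1 and 34.8 CPM in control and 7.49, 6.81 and 6.14 CPM in knockdown libraries. Its drop to 20.9% of the control mean, 4.74-fold lower, was the largest among the 37 tested genes (log2 fold change -2.24 ± 0.16, edgeR adjusted p = 8.29e-09). SPAG5 (astrin), which joins spindles and kinetochores, had the lowest p of the group. It read 213, 217 and 204 CPM against 64.3, 69.5 and 67.8 CPM, a tight separation (log2 fold change -1.65 ± 0.09, edgeR adjusted p = 7.50e-10). TPX2, the activator that brings AURKA onto spindle microtubules, was the most abundant, with a fall from 257 ± 8.38 to 118 ± 8.39 CPM, by 1.13 on the log2 scale. NUSAP1, a microtubule bundler, fell from 177 ± 7.41 to 69.7 ± 6.97 CPM, DLGAP5 (HURP), which steadies kinetochore fibres, from 61.1 ± 4.72 to 27.6 ± 3.87 CPM, and ASPM, which focuses spindle poles, from 42.5 ± 3.39 to 16.0 ± 2.81 CPM. HMMR, the hyaluronan receptor that also acts at spindle poles, had the smallest change of the group, with 55.4, 55.1 and 53.7 CPM in control and 21.8, 27.3 and 34.4 CPM in knockdown libraries (log2 fold change -0.99 ± 0.14, edgeR adjusted p = 3.07e-05). The knockdown values of HMMR were spread more than its control values, with knockdown 3 again the highest.

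Both genes of the mitotic chromosome body fell. TOP2A, the topoisomerase that untangles sister chromatids, was the highest of the 39 genes in control CPM together with CDC25B, at 813, 809.9 and 719.5 CPM against 327, 349 and 336 CPM in knockdown libraries (log2 fold change -1.21 ± 0.09, edgeR adjusted p = 1.69e-08). MKI67, the Ki-67 protein that coats mitotic chromosomes and serves as the usual marker of proliferating cells, read 578, 554 and 376 CPM against 168, 162 and 148 CPM. Control 3 was well under the other controls for MKI67, yet above every knockdown value by more than 2-fold (log2 fold change -1.65 ± 0.14, edgeR adjusted p = 4.12e-07).

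All 5 genes of the chromosomal passenger complex and of cytokinesis fell, with a median log2 fold change of -1.42. PRC1, which bundles the antiparallel microtubules of the midzone and lies at chr15:90966038-90995629 on the minus strand (GRCh38), read 270.3, 266 and 259 CPM in control and 67.2, 60.2 and 68.4 CPM in knockdown libraries. Its log2 fold change was -2.02 ± 0.09 (edgeR adjusted p = 6.09e-11), the lowest p among the mitotic genes and the 7th lowest of the 15391 tested. BIRC5 (survivin), the passenger subunit that binds histone H3, read 185, 203 and 228 CPM against 56.2, 60.2 and 59.4 CPM (log2 fold change -1.81 ± 0.10, edgeR adjusted p = 8.16e-10). Its kinase AURKB fell from 119 ± 6.64 to 44.4 ± 1.85 CPM, by 1.42 on the log2 scale. For the genes of the cleavage furrow the change was nearer to 0. ECT2, the exchange factor that switches on RhoA, fell from 92.0 ± 14.8 to 45.8 ± 1.42 CPM, by 1.00 on the log2 scale. ANLN, the anillin scaffold of the contractile ring, read 219, 206 and 172 CPM in control and 114, 123 and 105 CPM in knockdown libraries, with no overlap (log2 fold change -0.80 ± 0.10, edgeR adjusted p = 1.07e-05).

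**Figure D3:**
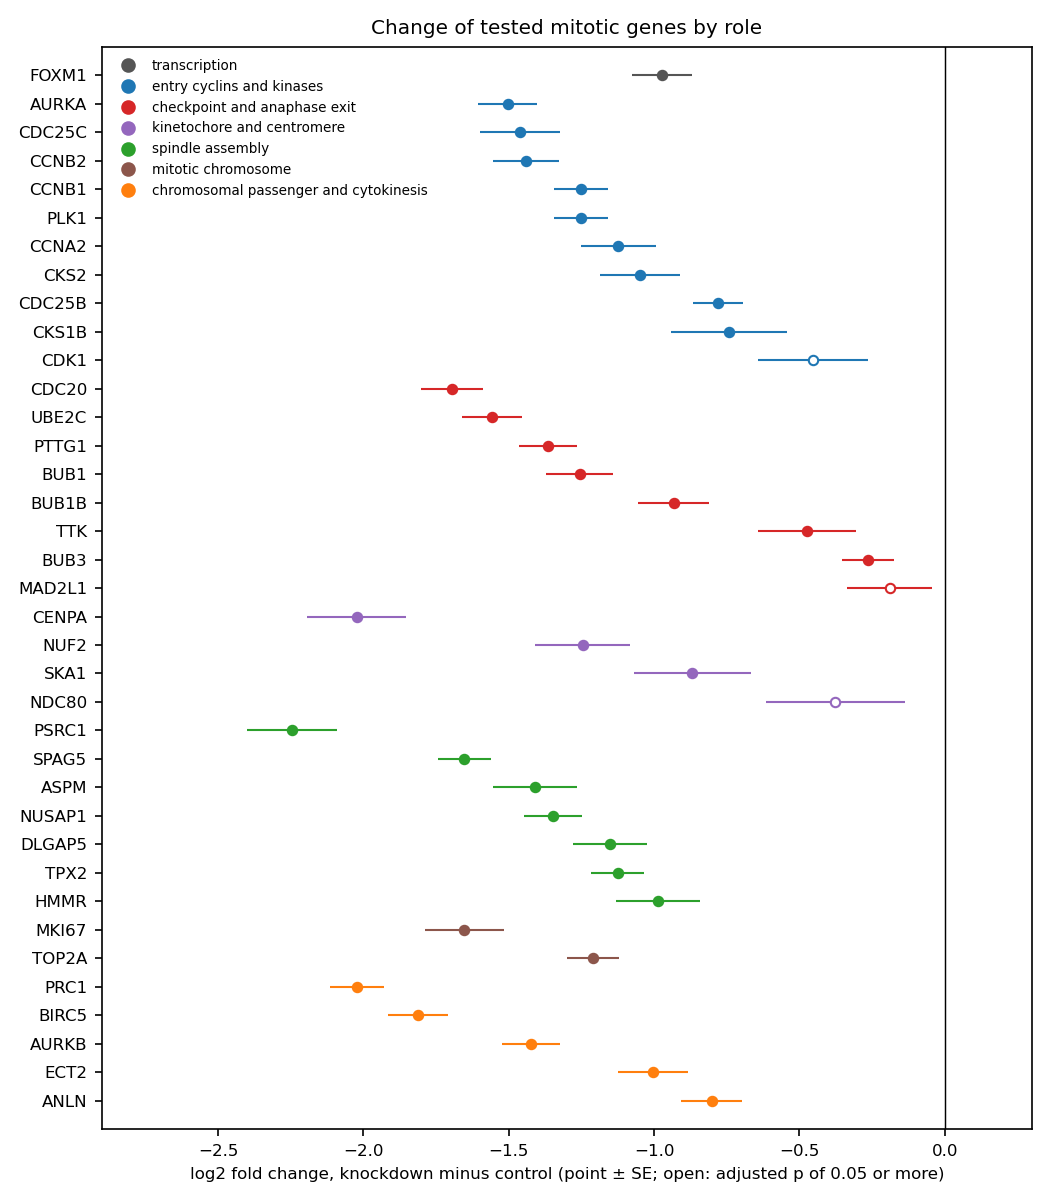
Log2 fold change, knockdown minus control, of the 37 tested genes with its SE (n = 3 per group), by role (colour) and size; filled points have an adjusted p under 0.05 and open points do not. Every point is under 0, from -2.24 for PSRC1 to -0.19 for MAD2L1, and the open points are CDK1, MAD2L1 and NDC80.

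Levels between genes were compared per kilobase of merged GENCODE exons. On that scale the control mean was highest for CDC25B (175 CPM per kb), TOP2A (121), UBE2C (102), PTTG1 (100.4) and CCNB1 (86.8). It was lowest among the tested genes for NDC80 (1.6 CPM per kb), TTK (3.66) and ASPM (3.90), and lower still for NEK2 (0.271) and CENPF (0.0655). CDK1 stood at 20.5 and MAD2L1 at 6.33 CPM per kb. The lowest level, that of NEK2 and CENPF, goes with the counts that were too few to test. Whether the way reads were counted made these counts low was not tested, so they do not show that the genes were barely expressed.

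The 3 knockdown libraries were much alike over the set. The median deviation of the 37 tested genes from their control mean was -1.29, -1.19 and -1.17 on the log2 scale in knockdown 1, 2 and 3. Knockdown 3, the shallowest library, was the highest of its group for 17 of the 37 genes, and knockdown 1 the lowest for 19. Among controls, library 3 was the lowest for 20. Whether depth had a part in the CDK1 and MAD2L1 values of knockdown 3 was not tested.

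Some of these counts can take reads from neighbours or copies, since no source used here says how reads were counted or whether strand was used. In GENCODE, 11 of the 39 share exon bases with another gene in the table, the most for FOXM1 (15.9% of its exon bases, with ITFG2 on the other strand), BUB1B (10.2%, with the same-strand BUB1B-PAK6 readthrough) and CCNA2 (9.08%, with EXOSC9). PRC1 and SPAG5 overlap their antisense genes over 7.35% and 7.02%, and CENPA shares 6.96% with the same-strand SLC35F6. A further 9 have pseudogene copies named after them in the table. Without these, and without PTTG1, which has close relatives (a check added after seeing the data), 18 genes were left, and of the 17 tested, 15 fell and 0 rose, with a median log2 fold change of -1.15.

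Other genes of cell division were read from lists of the same fit, which leave out the 39. Near the set in size stood the mitotic kinesins, the motors of spindle and midzone, of which 12 of 13 fell and 0 rose, with a median log2 fold change of -1.39. KIF20A, the midzone motor, read 193, 215 and 187 CPM in control and 57.3, 57.2 and 49.7 CPM in knockdown libraries, and KIF18A, at -0.28 ± 0.27, gave no call (edgeR adjusted p = 0.441). Condensin, the complex that folds mitotic chromosomes, had 7 of 8 lower and 0 higher with a median of -0.94. NCAPH fell by 1.16, NCAPG2 by 0.98 and SMC2 by 1.27 on the log2 scale, while NCAPH2, of condensin II, read 34.6 ± 2.19 CPM in control and 36.9 ± 5.8 CPM in knockdown libraries.

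The other lists held genes called in both directions, to be read against the 20.7% lower and 21.3% higher over all tested genes. Among 16 other entry regulators 7 fell and 4 rose (median -0.42): GTSE1, a G2 microtubule protein, fell by 1.47, ARPP19, a phosphatase inhibitor of entry, by 1.37 and the kinase PBK by 0.88. WEE1, a kinase that places inhibitory phosphate on CDK1, was at 0.08 ± 0.13 (edgeR adjusted p = 0.670). PKMYT1, another such kinase and named after its value was seen, was at -0.89 ± 0.15 (edgeR adjusted p = 0.000114). Among 34 other kinetochore genes 17 fell and 2 rose (median -0.36), with KNTC1, CENPO and SPC24 at -1.01, -0.97 and -1.28 and SPDL1 at -0.00. Of 15 tested cohesin and separase genes 8 fell and 2 rose (median -0.38), with the cohesion factor CDCA5 (sororin) and separase itself, ESPL1, at -1.01 and -1.12 and the cohesin regulator PDS5A at 0.00. Of 27 other spindle and centrosome genes 9 fell and 1 rose (median -0.27), led by CKAP5 at -0.94 and TACC3 at -0.82.

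Genes of cytokinesis moved in both directions. Of 18 other passenger and cytokinesis genes 7 fell and 7 rose (median -0.08). CIT, the citron kinase of the midbody, read 63.1, 59.5 and 52.1 CPM in control and 16.9, 20.1 and 15.7 CPM in knockdown libraries (log2 fold change -1.72 ± 0.13, edgeR adjusted p = 3.07e-08). RACGAP1, the partner of ECT2 at the midzone, fell by 1.23, and CDCA8 (borealin), a passenger subunit, by 1.54. Named after their values were seen, the genes of the ESCRT machinery, which cuts the midbody and also sorts endosomal cargo, differed in their calls. VPS4B (0.93 ± 0.12), PDCD6IP (0.71 ± 0.09), TSG101 (0.75 ± 0.14) and CHMP4B (0.30 ± 0.09) rose, while CHMP2A, at -0.21 ± 0.09 (edgeR adjusted p = 0.0750), and VPS4A, at 0.05 ± 0.09 (edgeR adjusted p = 0.714), gave no call. The 20 APC/C subunits and regulators gave 6 lower and 3 higher (median -0.07), near the shares over all tested genes, with ANAPC16 and MAD2L2 at -0.89 and -0.67 and CDC27 at 0.60, beside -1.69 for the activator CDC20 and -1.56 for the enzyme UBE2C.

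Of 17 tested genes for the regulators that act on the CHR and CCAAT elements, 4 fell, 2 rose and 11 gave no call (median 0.01), beside 20.7% lower and 21.3% higher over all tested genes. MYBL1 (A-MYB) was the largest change, with 11.2, 10.8 and 11.7 CPM in control and 4.66, 2.83 and 2.46 CPM in knockdown libraries (log2 fold change -1.73 ± 0.24, edgeR adjusted p = 1.75e-05), and TFDP1 fell by 0.60. MYBL2 (B-MYB), named after its value was seen, was at -0.26 ± 0.09 (edgeR adjusted p = 0.0317). The 2 that rose, also named after their values were seen, were RBL1 and E2F4. RBL1 was at 0.82 ± 0.17 (edgeR adjusted p = 0.000975) and E2F4 at 0.32 ± 0.09 (edgeR adjusted p = 0.0104). CDKN1A (p21), the CDK inhibitor that acts upstream of DREAM, was at 491 ± 65.2 CPM in control and 497 ± 10.5 CPM in knockdown libraries (log2 fold change 0.02 ± 0.10, edgeR adjusted p = 0.910). The replication licensing and fork genes, made earlier in the cycle, gave 20 lower and 5 higher of 46 (median -0.23). MCM4 fell by 0.94, CDC45 by 1.08 and POLD1 by 0.92 on the log2 scale, while FEN1 was at 0.01.

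**Figure D4:**
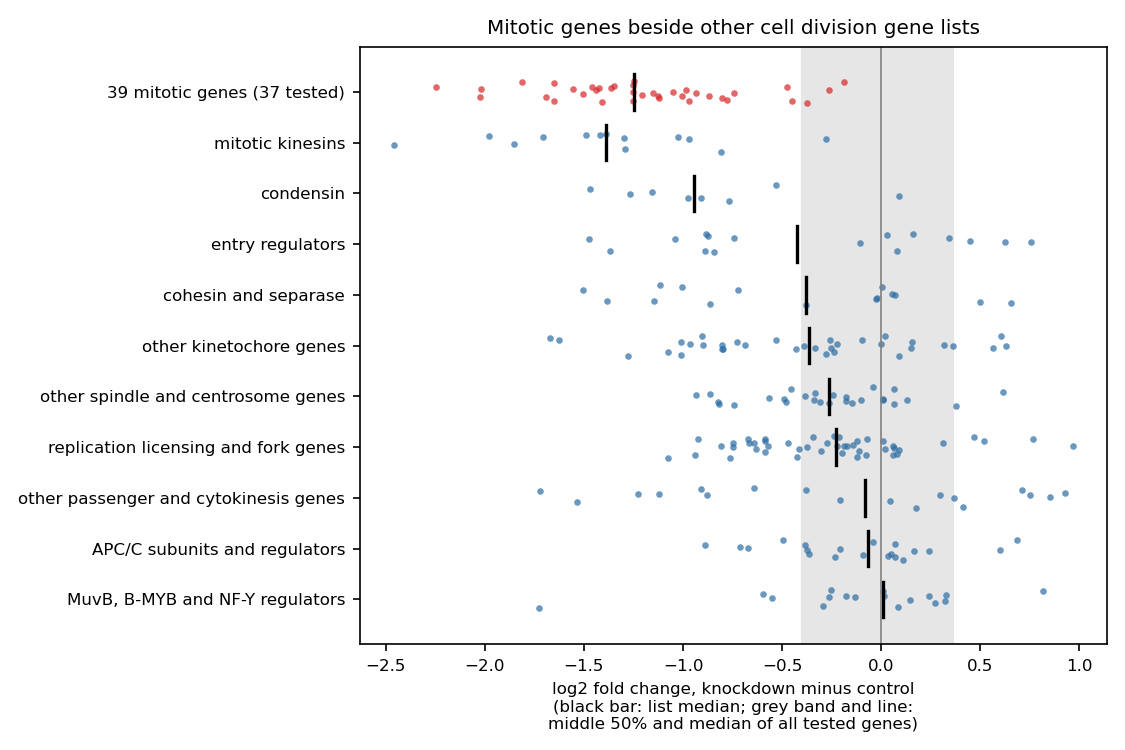
Log2 fold change, knockdown minus control, of each tested gene (points) in the mitotic set (red) and in 10 other lists of cell division genes (blue), with list medians as black bars; the grey band and line are the interquartile range and median of all 15391 tested genes. The mitotic set and the kinesins have medians of -1.25 and -1.39, and the MuvB, B-MYB and NF-Y regulators one of 0.01.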

How the data were processed

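Total RNA of 3 control and 3 knockdown samples was made into libraries for Ion Proton sequencing, as the protocols in the labels state. The authors deposited 1 table of raw read counts per gene symbol, with genome GRCh38 per the submitters' processing notes; no source used here names the aligner, the counter, the annotation or the use of strand. Counts were tested as deposited with edgeR 4.0.16 in R 4.3.3 (filterByExpr, TMM scaling, robust quasi-likelihood F test, no covariate), with two-sided p-values adjusted by Benjamini-Hochberg over 15391 genes and a threshold of 0.05. CPM uses TMM-scaled library sizes (totals of 7551303 to 11055408 reads), and the SE is the log2 fold change divided by the root of F. The fit was tested on simulated data. It recovered 9 of 65 genes changed by 0.5 on the log2 scale, 47 of 63 changed by 1 and 65 of 65 changed by 2. Of its 129 calls 8 were false. Changes near 0.5 were thus mostly missed there. Far fewer genes were changed in the simulation than were called in these data (3183 lower and 3274 higher), which makes the adjusted p stricter there. Its recovery is therefore not that of the fit to these data, where a gene without a call can still differ. Alternatives were other scalings and filters, DESeq2 1.42.0, limma-voom 3.58.1, a replicate block, leaving out each library, and an adjusted p of 0.01. Exon lengths and overlaps are from GENCODE, promoters from RefSeq. The members and lists were chosen with earlier results of these data known. Of 247 symbols in the other lists 246 matched, 6 by an older name. Values per library are given for members without a call, those with the lowest p or the largest or smallest change in each role, and the most abundant. Other lists are named by their lowest and highest p, and some of their genes are not reported here.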

Additional observations from a re-analysis of the deposited data

How the results depend on the processing

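Under every alternative run no mitotic gene rose, and 32 to 37 fell: 34 with RLE factors, 35 without scaling factors, with a filter of 5 CPM in 3 libraries, with DESeq2 and with limma-voom, 36 without a filter, 32 to 37 with 1 library left out and 32 at an adjusted p of 0.01. The median log2 fold change lay between -1.18 and -1.28. Of 481 values of single genes under alternatives, 464 kept direction and side of the threshold, 9 lost the call (BUB3 and TTK), 8 gained it (CDK1 and MAD2L1) and 0 reversed; the values of NEK2 and CENPF are not among them. With the replicate number as a block, 35 fell and CDK1 passed (adjusted p = 0.0134); the correlations of same-numbered deviations were -0.05, 0.07 and 0.05, and control 1 correlated best with knockdown 2. Small counts of higher genes moved: other kinetochore genes from 2 to 1 with the filter of 5 CPM, DESeq2, limma-voom and an adjusted p of 0.01, cohesin and separase genes from 2 to 1 with DESeq2 and an adjusted p of 0.01, and at that threshold the MuvB, B-MYB and NF-Y regulators from 2 to 1 and the replication genes from 5 to 2. With 1 library left out those 4 counts ranged from 1 to 3, 1 to 2, 1 to 3 and 3 to 5; the causes were not tested. Counting only bases before the start site, TTTGAA was in 53.1% of the mitotic genes with a promoter entry, against 16.1% of all genes in the promoter table. That share is lower than the 75% found over the whole window. NEK2 and CENPF, with 27 and 35 reads, were too low for the test under the main filter.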

Other observations

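The kinase gene NEK2 and the CDK subunit gene CKS1B had fewer reads than pseudogene copies named after them, an observation made after seeing the counts. The 4 NEK2 copies held 94 reads against 27 for NEK2, and gene and copies together stood at 3.72 ± 0.518 CPM in control and 0.296 ± 0.217 CPM in knockdown libraries (SD, n = 3; log2 fold change -3.63 ± 0.47, edgeR adjusted p = 9.75e-06). The 7 CKS1B copies held 2010 reads against 672, and the sum fell from 58.8 ± 9.14 to 32.1 ± 2.74 CPM (log2 fold change -0.87 ± 0.13, edgeR adjusted p = 4.27e-05). For CDC20 the single copy CDC20P1 held 735 reads against 5494, and the sum fell by 1.70 on the log2 scale; for PTTG1 the relatives PTTG2 and PTTG3P held 528 against 8350, and the sum fell by 1.39. Reads of a gene and of its copies cannot be told apart here.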
